A study of Mus musculus with 6 samples.

Results

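Genes of the centrosome were followed in mouse oocytes that had finished growth and still held an intact nucleus, the germinal vesicle (GV). The members are all probe sets that the array's annotation assigns to 1 gene symbol that starts with Cep and a digit, Haus or Tubgcp, or that is Pcnt, Cdk5rap2, Tubg1, Tubg2, Plk4, Nedd1, Ninl or Nin. The choice used names and no measured value, but it was made with earlier results of these data known. It gave 118 probe sets of 58 genes, out of 45037 probe sets on the array. The line is B6.Y(TIR), in which mice with a Y chromosome can develop ovaries, and oocytes of such XY females were set against those of XX littermates, with 3 arrays of each genotype. All females, XX and XY alike, were 25 to 29 days old, were injected with 5 IU of equine chorionic gonadotropin and were killed 45 to 47 hours later. Each array carried RNA of 10 oocytes freed of cumulus cells by pipetting, amplified in 2 cycles from oligo(dT) primers. The XY oocytes differ from the XX oocytes both in carrying a Y chromosome and in having a single X, and these arrays cannot tell the 2 apart.

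A centrosome is usually built around a pair of centrioles, which gather a matrix of pericentriolar proteins, and that matrix holds the gamma-tubulin ring complexes from which microtubules grow. Mouse oocytes lose their centrioles during oogenesis. They build the meiotic spindle from many acentriolar microtubule organizing centres, which still contain pericentrin, Cep192, Nedd1 and gamma-tubulin. The augmin complex, made of the Haus subunits, adds new microtubules along existing ones. The centriole itself, its appendages and the cilium base have no organelle to serve in the grown oocyte, yet many of their genes were measured here.

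The arrays of XX oocytes were less alike than those of XY oocytes. Correlations over 12442 genes ran from 0.967 to 0.983 within XX, from 0.980 to 0.982 within XY and from 0.940 to 0.962 between them. The log2 ratio of 3' to 5' signal of the Actb control, which rises as RNA is shorter, was 5.53 in XX 1 but 3.87 and 3.996 in XX 2 and XX 3, and 5.20 to 5.90 in the XY arrays. On this control XX 1 lay with the XY arrays. The 13 oocyte markers checked, among them Zp3 and Gdf9, were at or above the array median on all 6 arrays, and 1 of them rose and 2 fell in XY. Markers of other ovarian cells differed by list. The summed intensity of 15 granulosa and cumulus markers was 1471 to 1986 in XX and 2004 to 2561 in XY, that of 5 blood and immune markers 134 to 185 and 320 to 348, and that of 7 theca and stroma markers 109 to 147 and 241 to 378. Most of the last sum in XY was Dcn, at 151 to 301, and most of the one before it was Csf1r, at 220 to 253. Inha rose among 12 granulosa and cumulus markers tested, while Gja1 (2.59, adjusted p = 0.0619) and Kitl (-0.63, adjusted p = 0.0715) had no overlap, in opposite directions, and did not pass. Csf1r and Cd68 rose among 2 blood and immune markers, and 0 of 2 theca and stroma and 0 of 3 endothelium markers passed by limma. The endothelium markers summed to 184 to 346 in XX and 237 to 338 in XY. None of these markers was at an intensity of 0, and the granulosa marker Amh and the leukocyte marker Ptprc stayed below the array median on all 6 arrays. The part of such cells in the results below was not tested.

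Of the 58 genes, 55 passed the filter on low values, for which a probe set has to reach the median of 3 or more of the 6 arrays. They had 92 of the 118 probe sets, 76 of which reached the median on all 6 arrays, and 0 passed through 1 genotype alone. Cep250, which encodes the linker protein C-Nap1, Cep295nl and Tubgcp6, the largest subunit of the gamma-tubulin ring complex, did not pass. The probe set of Tubgcp6 read 0.859 to 10.5 as deposited, below every array's median. Levels below are log2(normalized intensity + 9). A change is XY minus XX on that scale, and adjusted p is limma's, corrected over all genes tested.

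Among the 55 genes, 4 rose and 1 fell in XY oocytes, 9.09% of them, against 13.2% of all genes tested. Rises were 7.86% and falls 5.34% of all genes. Haus1, Cep78, Haus7 and Cep43 rose and Cep170 fell. The remaining 50 did not pass, and 18 of the 55 (32.7%) had an unadjusted p under 0.05, against 32.2% of all genes. The median change of the 55 genes was 0.01, and it was 0.07 over all genes. The median size of the change, whatever its sign, was 0.35 in the members and 0.34 in all genes. Values of XX and XY did not overlap for 22 genes (40.0%), 13 higher and 9 lower in XY, against 38.8% of all genes. A difference of at least 2-fold was seen in 2 genes (3.64%), Haus1 and Cep170, against 8.72% of all genes. In none of these counts did the share of centrosomal genes lie far above the background, and the differences in share were not tested.

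**Figure D1:**
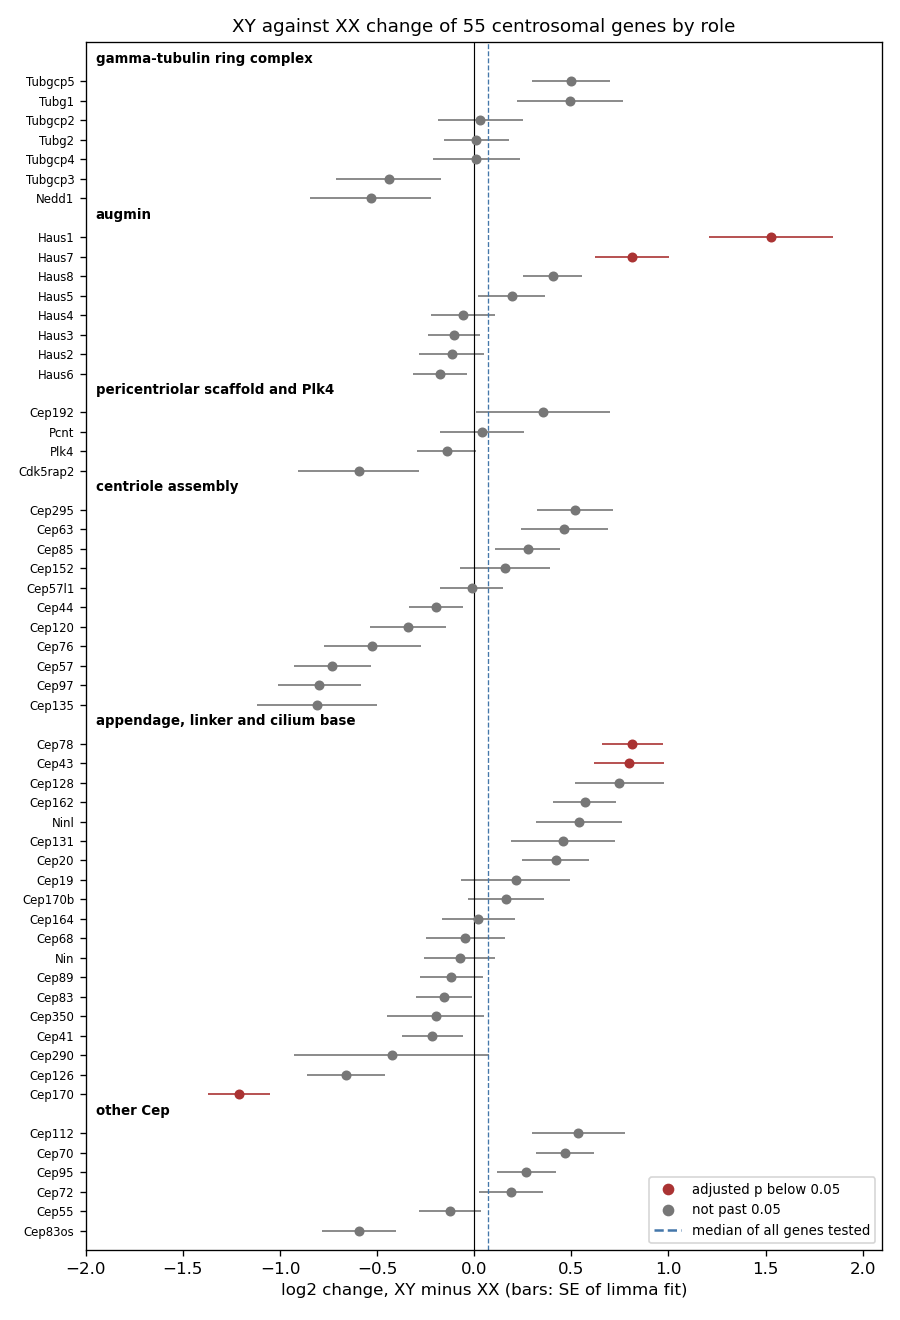
Change of each of 55 centrosomal genes between XY and XX oocytes (x axis, log2 units, bars are the SE of the limma fit), grouped by role, with genes past an adjusted p of 0.05 in red and the median of all genes tested, 0.07, as a dashed line. Most genes lie within 1 log2 unit of 0, and Haus1 (1.53) and Cep170 (-1.21) lie beyond it.

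Augmin held the largest rise. Haus1 (chromosome 18), a small coiled-coil subunit of the complex, measured 9.82 in XX 1, 8.60 in XX 2 and 8.72 in XX 3. Its XY values, here and below also given by replicate number, were 10.60, 10.52 and 10.59. All XY arrays were higher than all XX arrays, and XX 1 lay between the other XX arrays and XY. The change was 1.53 ± 0.32 (SE, adjusted p = 0.0253), or 2.88-fold. Haus7, the only X-linked gene among the members tested, measured 7.20, 7.36 and 7.64 in XX and 8.28, 8.40 and 7.96 in XY. Again the groups did not overlap, and the rise was 0.81 ± 0.19 (adjusted p = 0.0349). Only 16 of 375 X-linked genes tested rose in XY (4.27%) while 95 fell, so Haus7 was among the few that went up.

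The other augmin subunits did not pass. Haus8, the subunit that binds microtubules, read 9.99, 9.76 and 10.01 in XX and 10.45, 10.30 and 10.22 in XY, with no overlap (0.40 ± 0.15, adjusted p = 0.118). Haus6, which links augmin to Nedd1 and gamma-tubulin, had a change of -0.18 ± 0.14, and Haus3 one of -0.10 ± 0.13. Haus3 measured 12.49, 12.53 and 12.51 in XX and 12.41, 12.42 and 12.38 in XY. Its groups did not overlap, yet the gap was smaller than its SE in the fit, which shares the spread over all genes. Haus5 (0.19), Haus4 (-0.06) and Haus2 (-0.12) had overlapping groups. Another kept probe set of Haus2 had a change of -0.64 ± 0.24 with no overlap, though XX 2 and XY 2 were nearly equal (both 5.73). It did not pass in the limma fit over kept probe sets (adjusted p = 0.120). The 8 subunits thus split into 2 that rose, 0 that fell and 6 that did not pass, with a median change of 0.07. Over all genes 7.86% rose and 5.34% fell, and differences in share by role group were not tested.

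**Figure D2:**
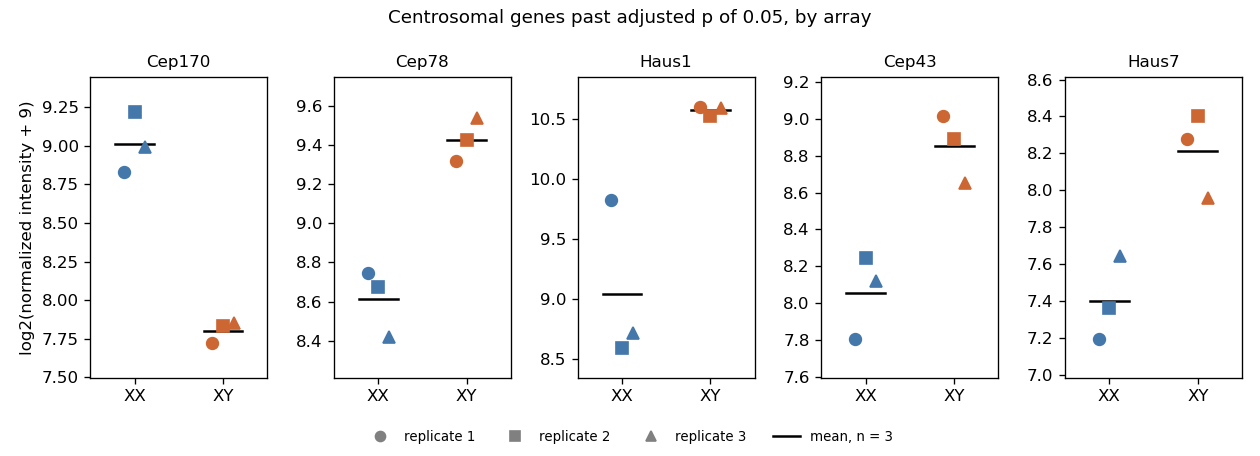
Level of the 5 centrosomal genes past an adjusted p of 0.05 on each array (y axis, log2(normalized intensity + 9), with its own range for each gene), with XX in blue, XY in orange, replicate numbers by symbol and the mean of 3 as a bar. XX and XY do not overlap in any of the 5, and Haus1 in XX 1 (9.82) stands above XX 2 and XX 3 (8.60 and 8.72).

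Among genes of the centriole's appendages, of its linker and of the cilium base, 2 of 19 rose and 1 fell, against 7.86% and 5.34% of all genes. Cep170 (chromosome 1), a microtubule-binding protein of the subdistal appendages, measured 8.83, 9.22 and 8.99 in XX and 7.72, 7.83 and 7.85 in XY. The gap between the groups was several times the spread within either, and the fall was -1.21 ± 0.16 (adjusted p = 0.00717), or 2.32-fold. A dimmer probe set of Cep170 had a change of -1.07 ± 0.45 but read 4.51, 5.40 and 3.42 in XY, so that its adjusted p was 0.162. Cep78 (chromosome 19), a centriole wall protein needed in photoreceptors, measured 8.74, 8.67 and 8.42 in XX and 9.32, 9.42 and 9.54 in XY. Cep78 rose by 0.81 ± 0.16 (adjusted p = 0.0202). Cep43 (chromosome 17), also called Fgfr1op, a centriole and basal body protein, measured 7.81, 8.25 and 8.12 in XX and 9.02, 8.89 and 8.65 in XY. It rose by 0.80 ± 0.18 (adjusted p = 0.0321). Each of these 3 genes had all XY arrays on 1 side of all XX arrays.

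The stretches just before the transcription starts of 4 of the 5 changed genes are shown to set genes past the threshold side by side, and that of Haus1 is not shown here. They come from RefSeq (GRCm38.p6), are 100 bases long, end at the base before the annotated start and read along the gene. Capitals mark the CCAAT box (CCAAT), the GC box bound by Sp factors (GGGCGG), the core of the NRF1 site (GCATGCGC) and TTTGAA, the cell cycle homology element, searched on both strands. The first 3 rose and Cep170 fell. Cep170 has 2 annotated starts, and the stretch shown is that of the upstream start.
Haus7 (chrX:73459030-73459129, minus strand): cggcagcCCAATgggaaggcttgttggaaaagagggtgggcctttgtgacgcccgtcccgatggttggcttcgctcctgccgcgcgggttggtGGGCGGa
Cep78 (chr19:15984990-15985089, minus strand): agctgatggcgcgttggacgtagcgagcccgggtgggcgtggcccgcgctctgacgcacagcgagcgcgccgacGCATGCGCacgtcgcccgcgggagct
Cep43 (chr17:8165418-8165517, plus strand): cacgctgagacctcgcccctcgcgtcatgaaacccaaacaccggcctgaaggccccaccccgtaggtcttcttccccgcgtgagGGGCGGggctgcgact
Cep170 (chr1:176813954-176814053, minus strand): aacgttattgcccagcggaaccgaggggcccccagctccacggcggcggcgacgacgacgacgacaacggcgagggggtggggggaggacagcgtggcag
Haus7 and Cep43 both hold GGGCGG, Haus7 holds CCAAT as well, and Cep78 holds GCATGCGC only. The stretch of Cep170 holds none of the 4 motifs, and that of its downstream start holds 1 TTTGAA. The promoter table listed 59 promoters for 49 of the 58 genes. Over the 250 bases before the start, GGGCGG was found in 57.6% of them, against 54.2% of 12822 promoters of genes tested on the array and 32.7% of all 32851 promoters in the table. CCAAT was found in 37.3%, 35.1% and 33.8%, TTTGAA in 11.9%, 10.9% and 16.0%, and GCATGCGC in 3.39%, 4.08% and 2.26%. These are matches of letters and not tests of binding.

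The gamma-tubulin ring complex, the nucleator of microtubules, had 0 of 7 tested genes past the threshold by limma, with 1, Tubgcp5, at an unadjusted p under 0.05. Over all genes 13.2% passed and 32.2% had an unadjusted p under 0.05. Tubg1, the main gamma-tubulin gene, measured 9.08, 7.98 and 8.53 in XX and 9.13, 8.92 and 9.01 in XY. XX spanned over 1 log2 unit and reached into the XY values, and the change of 0.49 ± 0.27 had a 95% interval of -0.15 to 1.13. Tubg2, the second gamma-tubulin gene, read 8.98, 9.03 and 9.22 against 9.09, 8.89 and 9.29, a change of 0.01 with an interval of -0.38 to 0.40. The scaffold subunits differed in direction. Tubgcp2 had a change of 0.03, Tubgcp3 of -0.44, Tubgcp4 of 0.01 and Tubgcp5 of 0.50 ± 0.20 (adjusted p = 0.136). Another probe set of Tubgcp4, about as bright in XX (mean 7.02 against 7.03), had a change of -1.52 ± 0.45 with no overlap. It did not pass in the limma fit over kept probe sets (adjusted p = 0.0733). Nedd1, which targets the ring complex to spindles and organizing centres, measured 10.37, 11.55 and 11.33 in XX and 10.59, 10.72 and 10.34 in XY. XX 1 lay among the XY values, well below the other XX arrays, and the change was -0.53 ± 0.31 (adjusted p = 0.276).

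The pericentriolar scaffold and Plk4, the kinase that starts centriole duplication, had 0 of 4 genes past the threshold by limma and 0 at an unadjusted p under 0.05. Pcnt, pericentrin, the core of the oocyte's organizing centres, measured 10.85, 11.45 and 11.60 in XX and 11.31, 11.44 and 11.28 in XY. The groups overlapped, and the change of 0.04 had a 95% interval of -0.47 to 0.55. Plk4 measured 12.66, 12.95 and 12.98 against 12.69, 12.78 and 12.68, with a change of -0.14 and an interval of -0.50 to 0.22. Cep192, which recruits Plk4 and Aurora A, measured 7.54, 8.86 and 8.80 in XX and 8.77, 8.77 and 8.72 in XY. A single array, XX 1, set its mean apart, and the change was 0.35 ± 0.35. Cdk5rap2, which tethers gamma-tubulin rings, measured 7.48, 8.51 and 8.49 in XX and 7.90, 7.41 and 7.39 in XY (-0.60 ± 0.31, adjusted p = 0.225). That is its brightest probe set, and dimmer ones had changes of 0.69 ± 0.24, with no overlap, and 0.07 ± 0.48. Neither passed in the limma fit over kept probe sets (adjusted p = 0.104 and 0.934). The 95% intervals of Cep192 (-0.46 to 1.16) and Cdk5rap2 (-1.32 to 0.13) were wider than those of Pcnt and Plk4.

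Of 11 genes of centriole assembly, 0 passed by limma and 4 had an unadjusted p under 0.05, against 32.2% of all genes. Cep97, which caps the centriole with Ccp110, measured 6.13, 6.66 and 6.19 in XX and 5.81, 5.49 and 5.29 in XY. Its change of -0.80 ± 0.21, with no overlap, just missed the threshold (adjusted p = 0.0502). A dimmer kept probe set of Cep97 had a change of 0.04 ± 0.31 with overlapping groups. Its adjusted p was 0.944 in the limma fit over kept probe sets. Cep57, a centrosome protein whose loss causes a human aneuploidy syndrome, had a change of -0.73 ± 0.20 (adjusted p = 0.0519), also with no overlap. Cep135, a cartwheel protein, had the most negative value (-0.81 ± 0.31, adjusted p = 0.119), with XY 2 at 6.52 and XY 1 and XY 3 at 7.54 and 7.70. Cep295, needed for new centrioles to mature, had the most positive one (0.52 ± 0.20, adjusted p = 0.115). Cep63 and Cep152, which together bring Plk4 to the centriole, had changes of 0.46 ± 0.22 and 0.16 ± 0.23. In this group 4 changes were positive and 7 negative.

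Further genes of the appendages and the cilium base lay near the threshold without passing it. Cep162 (0.57, adjusted p = 0.0580) is a protein of the ciliary transition zone and Cep128 (0.75, adjusted p = 0.0698) one of the subdistal appendages. These 2 and Cep126 (-0.66, adjusted p = 0.0700) had no overlap between XX and XY. Other kept probe sets of Cep128 had changes of -0.02 and -0.04. Ninl, the ninein-like gene, was dim and had a change of 0.54 ± 0.22, while Nin, ninein, had one of -0.07 ± 0.18 by its brightest probe set. Cep164, of the distal appendages, was bright on this array and had a change of 0.02. Among the remaining Cep genes 0 of 6 passed by limma, with 2 at an unadjusted p under 0.05. Those 2 were Cep70 (0.47, adjusted p = 0.0801) and the noncoding Cep83os (-0.59, adjusted p = 0.0814). The naming rule takes in Cep83os although it is an opposite-strand RNA. Another kept probe set of Cep70 had a change of -0.59, also with no overlap (adjusted p = 0.203 in the limma fit over kept probe sets). Cep112 had the largest positive change of that group, 0.54.

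Probe sets of the same gene did not always give the same change. Of 27 genes with several kept probe sets, 48 pairs could be compared, and 21 of these pairs (43.8%) had changes of opposite sign, against 36.2% of all such pairs on the array. In the fit over 22997 kept probe sets, 11 of 92 member probe sets passed (11.96%), 5 higher and 6 lower, against 10.5% of all. Median scaling of the arrays gave 2 higher and 14 lower, trimmed mean scaling 7 higher and 5 lower, and the values as deposited 2 higher and 5 lower. Over all genes tested, the same scalings gave 482 higher and 1622 lower, 1423 and 586, and 472 and 529. Shares over all kept probe sets under these scalings were not counted. Of the 11, 6 were not the brightest probe set of their gene, and 5 of these 6 were lower in XY. One of these 6 was of Plk4. Its brightest probe set had a change of -0.14, its middle one read 10.02, 10.77 and 11.28 in XX and 10.38, 10.20 and 10.03 in XY (-0.49), and its dimmest one read 8.62, 8.54 and 9.00 against 7.86, 7.13 and 7.20. That last probe set fell by -1.33 ± 0.25 (adjusted p = 0.0213) with no overlap.

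Nin behaved in a similar way. Its brightest probe set read 10.43, 10.97 and 10.77 in XX and 10.52, 10.74 and 10.68 in XY. Another probe set read 10.56, 11.20 and 10.79 against 9.73, 9.99 and 10.07 and fell by -0.92 ± 0.21 (adjusted p = 0.0384). The dimmest one read 7.61, 7.84 and 7.64 against 6.45, 6.24 and 6.82 and fell by -1.19 ± 0.20 (adjusted p = 0.0167). As the mean of its 3 probe sets, Nin had a change of -0.73 (adjusted p = 0.0358). The further probe sets that passed were of Cep57 (-0.98 ± 0.17), Cep164 (-0.76 ± 0.19) and Cep68 (1.16 ± 0.22), the last from a low level of 5.27 to 6.01 in XX. Both probe sets of Cep57 thus pointed down.

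The difference between probe sets of the same gene was also tested directly, over 12168 pairs on the array. By limma, 0 of the 48 member pairs passed, and 4 of all pairs did (0.0329%). At an unadjusted p under 0.05 there were 20 member pairs (41.7%), against 21.9% of all. Pairs of the same gene can share a probe set, as those of Cep68, Nin and Plk4 did, so they are not independent. The difference in share was not tested. The smallest adjusted p were 0.0818 for Cep162, whose probe sets read -0.65 and 0.57, and for Cep68. For Nin the dimmest and brightest probe sets differed by 1.12 ± 0.25 (adjusted p = 0.0851), and for Plk4 by 1.19 ± 0.28 (adjusted p = 0.0937). An unequal change of these probe sets was therefore not established. The position of each probe set in its transcript was not used here. The 5' signal of the Actb control was 45.9 in XX 1, 184 and 188 in XX 2 and XX 3 and 54.7 to 62.7 in XY, and its part in these differences was not tested.

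**Figure D3:**
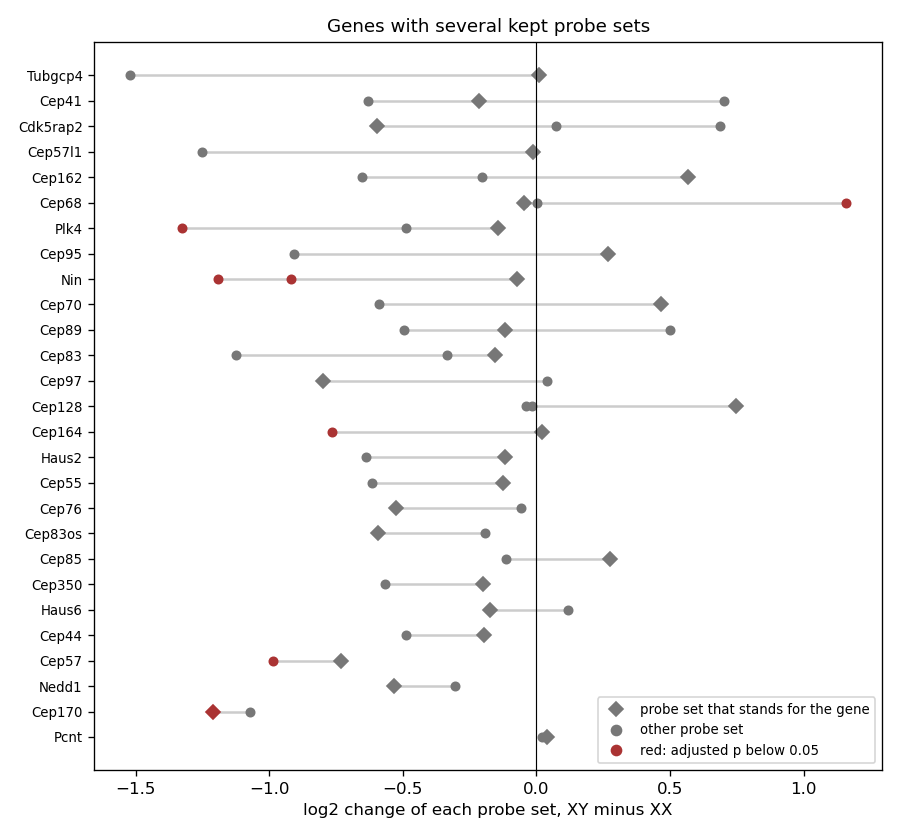
Change of each kept probe set (x axis, log2 units, XY minus XX) for the 27 centrosomal genes with several, ordered by the span between their probe sets, with the probe set that stands for the gene as a diamond and those past an adjusted p of 0.05 in red. Plk4 runs from -1.33 to -0.14 and Nin from -1.19 to -0.07, while the 2 probe sets of Pcnt coincide near 0.

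Array XX 1 differed from the other XX arrays in some of these genes. In 5 of 55 (9.09%) it lay at least 1 log2 unit from the mean of XX 2 and XX 3, against 6.79% of all genes. The 5 were Cep290, Cep192, Nedd1, Cdk5rap2 and Haus1, chosen after their values were seen. Cep290, a gatekeeper of the cilium's transition zone, read 4.80 in XX 1 and 6.90 and 6.40 in XX 2 and XX 3, and 5.93, 5.48 and 5.42 in XY. All 5 in XX 1 lay nearer the XY mean than the mean of XX 2 and XX 3, and Cep192 and Cep290 in XX 1 were also below all other arrays. The cut that picked these 5 favours such nearness, and its share among all genes past the cut was not counted. In 33 of 55 members (60.0%) XX 1 was nearer to XY in this sense, against 50.2% of all genes. The SD within XX was larger than within XY in 41 of 55 members (74.5%), against 66.0% of all genes.

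**Figure D4:**
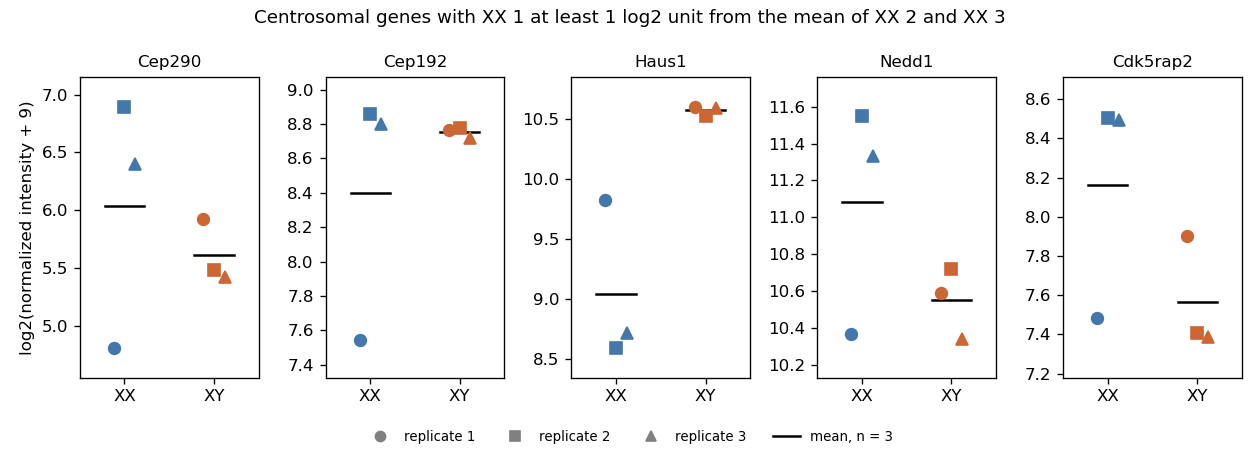
Level on each array (y axis, log2(normalized intensity + 9), with its own range for each gene) of the 5 centrosomal genes in which XX 1 (blue circle) lay at least 1 log2 unit from the mean of XX 2 and XX 3, with XX in blue, XY in orange and the mean of 3 as a bar. XX 1 is low for Cep290 (4.80), Cep192 (7.54), Nedd1 (10.37) and Cdk5rap2 (7.48) and high for Haus1 (9.82).

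Without XX 1, 20 of the 55 genes passed, 10 higher and 10 lower (36.4%, with 27.4% of all genes passing in the same fit). Haus1, Cep78, Haus7, Cep43 and Cep170, the 5 past the threshold with all 6 arrays, were among them, and Cep192 was not. Nedd1 then fell by -0.88 (adjusted p = 0.0167), Cdk5rap2, in its brightest probe set, by -0.94 (0.0221) and Cep290 by -1.05 (0.0263). Tubg1 rose by 0.76 (0.0385), Tubgcp5 by 0.69 (0.0181) and Cep63 by 0.68 (0.0322). Nedd1, Cdk5rap2 and Cep290 were among the 5 picked above because XX 1 lay apart from XX 2 and XX 3, on the side of XY. Leaving out XX 1 therefore widens their gap by construction, and their p-values are no independent support. With all 6 arrays and the Actb ratio as a covariate, the changes were 0.15 for Nedd1, -0.08 for Cdk5rap2, 0.62 for Cep290, -0.06 for Tubg1, 0.18 for Tubgcp5 and 0.06 for Cep63, so that those of Nedd1, Cep290 and Tubg1 had the other sign. Without any other single array, XX 2, XX 3, XY 1, XY 2 or XY 3, the count was 1, and that gene was Cep170, with 3.92% to 5.47% of all genes passing in the same fits. Haus1 missed in those 5 settings with an adjusted p of 0.0689 to 0.0800, Cep78 with 0.0547 to 0.0756, Cep43 with 0.0581 to 0.101 and Haus7 with 0.0533 to 0.113. In the fit with the Actb ratio, 0 of 55 passed by limma, with 10 at an unadjusted p under 0.05, and Cep170 had a change of -1.02 (adjusted p = 0.0552). The rises of Haus1, Haus7, Cep43 and Cep78 were 0.81, 1.02, 1.01 and 0.72 in that fit. The Actb ratio was 5.20 to 5.90 in XY, and of the XX arrays only XX 1 (5.53) lay in that range. The fit with the ratio thus separates it from genotype mainly through XX 1, and without XX 1 the ratio and genotype cannot be told apart. Neither the 20 genes nor the 0 can therefore be taken as the better count.

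The scaling of the arrays moved the balance of directions. With the deposited values 1 gene rose and 1 fell, with median scaling 1 rose and 4 fell, and with trimmed mean scaling 5 rose and 1 fell. Over all genes 978 rose and 665 fell, and these counts were 472 and 529, 482 and 1622, and 1423 and 586 under the same 3 scalings. The median change of all genes was -0.12, -0.27 and 0.18 under these scalings, and that of the members was -0.30, -0.46 and 0.01. Haus1 and Cep170 kept their calls in all 3. Cep78 (0.51 and 0.34), Cep43 (0.52 and 0.36) and Haus7 (0.57 and 0.41) stayed positive but did not pass with the deposited values or with median scaling, with adjusted p of 0.279 to 0.399. Under median scaling Cep57 (-1.07), Cep97 (-0.88) and Cep135 (-1.13) also passed, and under trimmed mean scaling Ninl (0.90, adjusted p = 0.0244) did.

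With each gene's level centred over the arrays, the 55 genes had a median, less that of all genes, of -0.09 in XX 1 and 0.07 in both XX 2 and XX 3. The XY arrays gave -0.03, -0.05 and 0.01. The genotypes overlapped, and XX 1 was the lowest array.

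Other genes of centrosomes and of acentriolar spindles gave a similar count. From a list of 49, Fgfr1op is the member Cep43, and 47 of the other 48 passed the filter. Of these, 4 rose and 2 fell (12.8%, against 13.2% of all genes), with a median change of 0.08. Median scaling left 0 that rose and 5 that fell, trimmed mean scaling 2 and 2, and the values as deposited 0 and 3. In that order these were 10.6%, 8.51% and 6.38% of the list genes tested, against 16.9%, 16.1% and 8.05% of all genes. The cartwheel gene Sass6 measured 7.57, 7.51 and 7.59 in XX and 8.35, 8.42 and 8.35 in XY and rose by 0.82 ± 0.13 (adjusted p = 0.0127). The kinase gene Nek7 rose by 0.76 ± 0.16, the spindle assembly factor gene Tpx2 by 0.65 ± 0.17 and the centriole gene Poc5 by 0.60 ± 0.14. Ofd1, a centriole and satellite gene, and the centrin gene Cetn2 fell by -0.98 ± 0.13 and -0.83 ± 0.14 (adjusted p = 0.00843 and 0.0127). Both are X-linked and were the only X-linked genes of this list, so they moved with most changed X-linked genes, in the direction opposite to Haus7.

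Genes of multiciliated cells, which make centrioles in large numbers, were checked as markers of oviduct epithelium. Of 7 on the array, Ccno was bright and fell by -0.74 ± 0.19, from 12.51, 12.44 and 12.99 to 11.97, 11.86 and 11.90. Deup1, a relative of Cep63 that builds deuterosomes, was dim and rose by 2.09 ± 0.50 (adjusted p = 0.0372). Its normalized intensity was 5.53, 1.88 and 29.6 in XX and 53.6, 51.4 and 115 in XY, and its fold rests on values near the pseudocount. The 6 markers other than Ccno summed to an intensity of 93.7 to 170 in XX and 134 to 239 in XY, which overlap. Foxj1 and Dnah5, a regulator and a motor of motile cilia, were at or above the array median on 1 and 0 of 6 arrays.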

How the data were processed

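Each of 6 Affymetrix 3' expression arrays measured RNA of 10 GV oocytes. The deposited table gives 1 linear intensity per probe set and array, and MAS5 is the only tool named, per the submitters' processing notes. Which MAS5 version and target value applied is not given in the sources used here. Array medians ran from 24.5 to 31.4, so scaling had not brought them to a common level.

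In R 4.3.3 with limma 3.58.1, the 45037 probe sets other than controls were quantile-normalized and taken as log2(intensity + 9), 9 being the 25th percentile. This scale understates changes of dim genes, and quantile normalization hides any change in total mRNA. Probe sets at or above the array median on at least 3 of 6 arrays were kept, 22997 in all. The brightest stood for its gene, which gave 12442 genes. Symbols are those of the platform annotation, and all 58 member genes matched the GRCm38.p6 gene table by ID, which gave chromosomes. The 2 genotypes were compared with lmFit and eBayes, and p-values were adjusted (Benjamini-Hochberg, threshold 0.05) over all genes or all kept probe sets. An SE is that of the fit, and the number of arrays, 3 per genotype, limits precision. The labels call the samples biological replicates. The steps were tested on simulated data.

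The genes named are those past the threshold, the largest positive and negative change of each role group and a fixed set of core genes. Further genes near the threshold and in XX 1 were chosen after their values were seen. The members and lists were chosen with earlier results of these data known. Alternatives changed the scaling, the pseudocount, the low-value filter, how probe sets were joined to genes, the variance model and the threshold, added array weights, a replicate block or the Actb ratio, used current symbols, or left out each array.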

Additional observations from a re-analysis of the deposited data

How the results depend on the processing

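The count of 5 centrosomal genes was 2 with the deposited values, 9 with a pseudocount of 32, 3 with no filter, 9 with a 70th percentile filter, 8 with a trended variance, robust or not, 19 with array weights, 2 with the replicate block, 0 with the Actb ratio and 12 at an adjusted p of 0.1. All genes stood at 17.5% with a pseudocount of 32, 25.8% with the 70th percentile filter and 19.4% to 19.6% with a trended variance. In those settings members stood at 16.4%, 20.0% and 14.5%. Members stood at 34.5% and all genes at 26.2% with array weights, and at 21.8% and 24.3% at an adjusted p of 0.1. These shares were 3.64% and 8.05% with the deposited values, 5.17% and 5.02% with no filter, and 3.64% and 5.46% with the replicate block. With the Actb ratio they were 0% and 1.9%. The count of all genes, 1643, was 1001, 913, 3264, 679, 236 and 3019 with the deposited values, no filter, array weights, the replicate block, the Actb ratio and an adjusted p of 0.1. In the same order, the 11 member probe sets became 7, 1, 25, 1, 0 and 24, and 7 with no pseudocount, and the 6 genes of the spindle and centrosome list became 3, 3, 14, 1, 0 and 12. That list had 11 genes past the threshold with the 70th percentile filter, 10 with a trended variance and 11 with a trended and robust one. With the Actb ratio, 19 member probe sets and 11 genes of that list had an unadjusted p under 0.05 by limma. The 48 pairs of probe sets, with 0 past the threshold, had 13 with array weights and 6 at an adjusted p of 0.1. Leaving out 1 array gave 472 to 3307 genes, 1 to 20 member genes, 1 to 33 member probe sets, 0 to 8 pairs and 1 to 14 list genes, the highest each time without XX 1. Other than where fewer samples, other probe sets or another threshold entered by construction, the cause was not tested.

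Over the 21 alternatives the call held in 20 for Cep170, 15 for Haus1, 12 for Cep78 and 11 each for Cep43 and Haus7. The sign changed in 0 of these genes. An adjusted p of 0.1 could not lose a call, and current symbols gave the same counts as the main setting. Both settings add to each of these totals. Replicate numbers are not stated to pair animals, so the numbers were not taken as pairs. Deviations of samples that share a number had correlations of -0.10, 0.00 and -0.04. Those of samples with unlike numbers ran from -0.06 to 0.10. With 3 arrays per genotype these values cannot show whether animals were paired. With the replicate block Cep170 and Haus1 passed, and Cep78 (adjusted p = 0.0691), Cep43 (0.0823) and Haus7 (0.0901) did not. Dim genes such as Cep290, at levels of 4.80 to 6.90, have changes that the pseudocount shrinks.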
